A study of Mus musculus with 4 samples.

Results

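Transcripts of 10 airway secretory genes (Scgb3a2, Scgb1a1, Scgb3a1, Bpifa1, Bpifb1, Dcpp1, Dcpp2, Dcpp3, Wfdc2 and Muc5b) were followed in the epithelial cells of mouse lung tumours. The 10 genes were chosen by symbol from 32289 features counted in single cells. There were 4 libraries, 1 for each combination of an injection (vehicle or tamoxifen) with a portion of the cells (before or after a depletion step). The alleles of all mice included p53frt, Rosa-FSF-CreERT2 and Hnf4aflox, so a Flp recombinase removes p53 and switches on a tamoxifen-inducible Cre, and tamoxifen is meant to remove Hnf4a. Tumours were started by adenoviral FlpO under the mouse surfactant protein C promoter (mSPC), which directs it to alveolar type 2 cells. Injection followed 10 weeks later and cells were taken 2 weeks after injection. The vehicle is called ethanol in the treatment label and corn oil in the treatment protocol. Macroscopic tumours were dissociated, a portion was frozen, and the remainder was depleted of CD45+ and CD31+ cells (leukocytes and endothelium). Libraries before and after depletion are thus portions of the same suspensions and do not replicate each other. The labels give neither the number of animals or tumours in a suspension nor the age of the mice.

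Secretoglobins are small disulfide-linked proteins of the airway lining. Scgb1a1 is the classical marker of club cells, and Scgb3a2 is made by club cells and their precursors. BPI fold proteins such as Bpifa1 and Bpifb1 are secreted into airway fluid by upper airway and gland cells, Muc5b is the main gel-forming mucin of the resting airway, and Wfdc2 is a whey acidic protein family member made by many secretory epithelia. The Dcpp genes, first described in salivary demilune and parotid cells, encode small secreted lectin-like proteins and lie beside each other on mouse chromosome 17. Alveolar cells, from which these tumours are started, are not the usual place of most of these transcripts.

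The Dcpp genes are close copies, and their upstream sequences are shown because the genes differed greatly in level while these sequences hardly did. The 250 bases before the RefSeq transcription start (GRCm38.p6, plus strand, written 5′ to 3′) lie at chr17:23880626-23880875 for Dcpp1, chr17:23898472-23898721 for Dcpp2 and chr17:23917208-23917457 for Dcpp3. Capitals mark bases of Dcpp2 and Dcpp3 that differ from Dcpp1 or have no partner in it. Ends that reach beyond the Dcpp1 window stay in lower case.
Dcpp1: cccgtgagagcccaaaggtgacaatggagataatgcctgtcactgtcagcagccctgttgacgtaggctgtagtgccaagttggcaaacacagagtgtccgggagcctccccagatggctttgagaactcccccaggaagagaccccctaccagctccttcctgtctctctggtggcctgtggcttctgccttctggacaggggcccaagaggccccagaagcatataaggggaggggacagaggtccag
Dcpp2: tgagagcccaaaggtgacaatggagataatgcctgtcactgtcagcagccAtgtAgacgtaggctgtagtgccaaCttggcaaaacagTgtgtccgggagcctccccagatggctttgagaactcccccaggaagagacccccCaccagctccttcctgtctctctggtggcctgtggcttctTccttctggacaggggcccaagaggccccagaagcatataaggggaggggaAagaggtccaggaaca
Dcpp3: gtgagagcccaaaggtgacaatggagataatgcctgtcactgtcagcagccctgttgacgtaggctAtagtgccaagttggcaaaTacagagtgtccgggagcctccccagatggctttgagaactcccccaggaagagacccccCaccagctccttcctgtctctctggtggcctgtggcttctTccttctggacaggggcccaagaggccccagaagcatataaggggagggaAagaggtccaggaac
Aligned with overhanging ends left out, Dcpp1 and Dcpp2 had the same base in 238 of 246 columns (96.7% identity). Dcpp1 and Dcpp3 did in 241 of 247 (97.6%), and Dcpp2 and Dcpp3 in 243 of 250 (97.2%).

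The upstream sequence of Bpifa1, at chr2:154142630-154142879 on the plus strand, is shown because Bpifa1 was the member furthest apart between treatments in both pairs among those at 10 CPM or more, and was highest in the same states as Dcpp1 after depletion. Capitals mark a match to the forkhead letters TNTTTAC and a match to the TATA box letters TATAAN.
Bpifa1: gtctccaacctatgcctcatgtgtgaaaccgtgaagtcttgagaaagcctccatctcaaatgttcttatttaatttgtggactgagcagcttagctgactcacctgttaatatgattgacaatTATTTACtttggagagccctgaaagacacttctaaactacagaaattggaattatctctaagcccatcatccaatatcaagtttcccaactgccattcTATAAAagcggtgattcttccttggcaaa
Motifs were searched on both strands, and their letters were settled after the sequences had been seen. The TATA box letters began 26 bases before the start in Dcpp1, 31 in Dcpp2, 29 in Dcpp3 and 29 in Bpifa1, and 22.7% of all 32851 promoters of the table hold them in this window. The forkhead letters, 127 bases before the start in Bpifa1 and absent from the Dcpp windows, are in 10.9% of promoters. Of the 2 windows the table gives for Bpifb1, 1 also holds both, the forkhead letters 110 and the TATA box letters 31 bases before the start. The NKX2 letters CACTTGA (2.68% of promoters) occurred in the Scgb3a1 window, 174 bases before its start, and in no other window searched. The HNF4 letters CAAAGTCCA (0.384% of promoters) occurred in none of the windows of the 7 members searched (Bpifa1, Bpifb1, Dcpp1, Dcpp2, Dcpp3, Scgb3a1 and Wfdc2). No window of Scgb3a2, Scgb1a1 or Muc5b was searched. Letter matches are descriptions and do not show that a factor binds.

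In the order vehicle before, vehicle after, labelled tamoxifen before and labelled tamoxifen after the depletion step (the library order used throughout), the libraries held from 92644997 to 144994771 UMIs, and 1083, 6525, 1089 and 7088 cells were epithelial-like, with medians of 24943, 18264, 28930 and 16843.5 UMIs per cell. Any 2 libraries shared between 10 and 18 cell barcodes. Hnf4a, the targeted gene, was at 57.0 and 55.0 CPM (counts per 1000000, here UMIs scaled to the UMI total of the epithelial-like class) in the vehicle libraries before and after depletion and at 86.9 and 83.0 CPM in the libraries labelled tamoxifen. This is 1.52-fold and 1.51-fold higher, against the direction the label implies, and 3′ counts do not show which exons a transcript carries, so directions below are those between libraries as labelled. The lung lineage regulator Nkx2-1 was at 248 and 204 CPM in vehicle and 257 and 225 CPM in the libraries labelled tamoxifen. Epithelial-like cells were not split into tumour and normal cells. The Cre transcript, from the allele that Flp switches on, had a UMI in 6.83%, 6.05%, 9.73% and 5.67% of them. Since each group is 1 library, the spread between animals is unknown, no p-value was computed, and the 95% intervals cover counting error only.

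Of the 10 genes, 6 reached 10 CPM in epithelial-like cells in either library of each pair, and 4 (Dcpp2, Scgb3a1, Bpifb1 and Dcpp3) stayed below 10 CPM in all 4 libraries. Wfdc2 was the most abundant at 1860, 2238, 2081 and 2387 CPM in the library order given. Dcpp1 followed with 565, 502, 749 and 789 CPM. The plot of levels by library shows how far these stand above the rest of the group. Bpifa1 had 140, 122, 456 and 404 CPM, so both libraries labelled tamoxifen lay above both vehicle libraries. Scgb3a2 had 127, 155, 126 and 104 CPM, so both libraries labelled tamoxifen lay below both vehicle libraries. Before depletion its ratio (0.992-fold, 0.951 to 1.04) could not be told from 1. Scgb1a1 was at 25.1, 22.8, 17.2 and 43.1 CPM, with the highest and the lowest value both in libraries labelled tamoxifen. Muc5b was at 12.1, 13.1, 15.4 and 10.5 CPM, again with both extremes under that label. Divided by exon length, the levels were 1631 to 2094 CPM per kilobase for Wfdc2, 814 to 1278 for Dcpp1, 78.8 to 295 for Bpifa1, 118 to 177 for Scgb3a2, 36.2 to 90.5 for Scgb1a1 and 0.70 to 1.03 for Muc5b. On that scale Wfdc2 stayed above Dcpp1 and Dcpp1 above the others, while Bpifa1 and Scgb3a2 overlapped. A 3′ count does not grow with transcript length as whole-transcript counts do, which makes the per-length value of Muc5b, whose exons span 14964 bases, a low one.

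**Figure D1:**
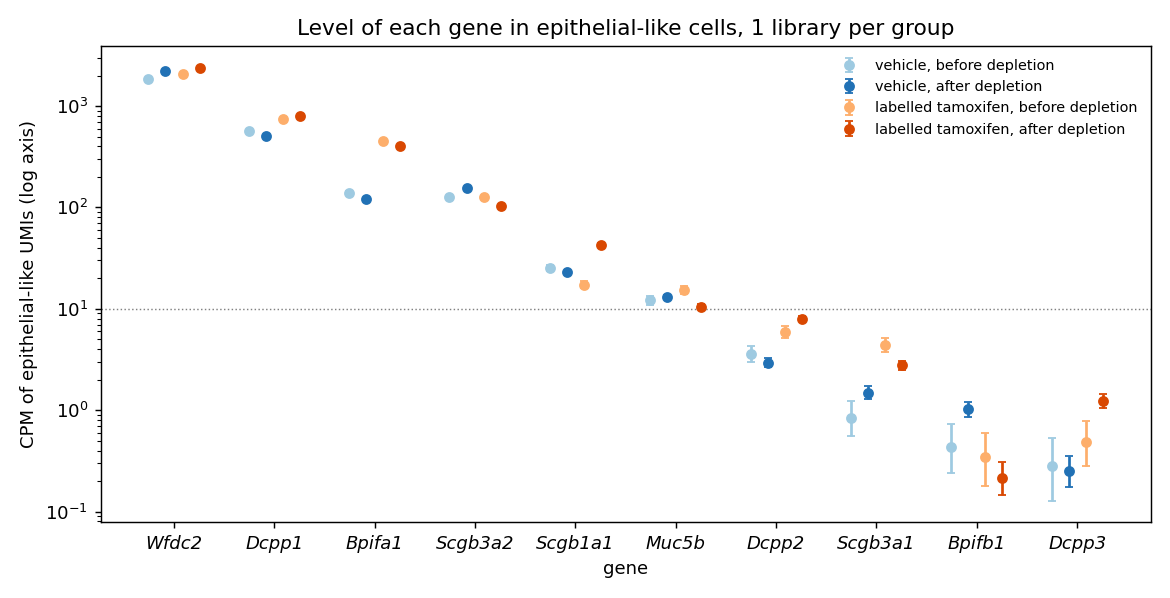
Level of each gene in epithelial-like cells as CPM of the class's UMIs, on a log axis, with 1 point per library and exact Poisson 95% intervals as bars. The dotted line is at 10 CPM. Bpifa1 sits at 122 to 140 CPM in the vehicle libraries and at 404 to 456 CPM in the libraries labelled tamoxifen.

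Whether these genes differed with treatment was asked in each pair of libraries apart, by a rule of size: at least 2-fold apart in the same direction before and after depletion. Bpifa1 was the only member past it. Its ratio of labelled tamoxifen over vehicle was 3.26-fold before depletion (95% interval 3.15 to 3.37) and 3.32-fold after (3.26 to 3.38). Of the 9042 genes at 10 CPM or more, 34 (0.376%) were as far apart in the higher direction and 84 (0.929%) in the lower, and no member was among the latter. Dcpp1 was 1.33-fold and 1.57-fold higher in the libraries labelled tamoxifen, and Wfdc2 1.12-fold and 1.07-fold. Scgb3a2 was level before depletion (0.992-fold) and at 0.667-fold after it. Its log2 ratio after depletion, -0.58, was 0.03 when every cell had equal weight and -0.03 with an epithelial gate applied cell by cell, and -1.23 without the 1% of cells with the most Scgb3a2 UMIs. The median log2 ratio of the 6 members considered was 0.24 before and 0.37 after depletion, beside -0.04 and 0.01 over all genes considered. In bulk sums like these, fewer cells making a transcript and less of it per cell cannot be told apart, and the following paragraphs give the cells behind each sum.

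Among the scarce members, Dcpp2 was at 3.62, 2.93, 5.92 and 7.99 CPM in the library order given, which puts both libraries labelled tamoxifen above both vehicle libraries. Dcpp3 was at 0.281, 0.25, 0.486 and 1.23 CPM, from 9, 34, 17 and 165 UMIs, and its ratio before depletion (1.73-fold, 0.730 to 4.41) could not be told from 1. Dcpp1, Dcpp2 and Dcpp3 share sequence: of the 90-base windows in the last 400 bases of Dcpp1 transcripts, 25.4% are also present in Dcpp2 and in Dcpp3 transcripts, and Dcpp2 as annotated (GENCODE M21 on GRCm38, chromosome 17, 23880880 to 23900788) spans nearly all of Dcpp1 (23880876 to 23882853), with 30 exon bases in common. How the authors' counting split reads between them is therefore uncertain, and levels of Dcpp2 and Dcpp3 may hold reads of Dcpp1 or lack their own. Scgb3a1 was at 0.842, 1.49, 4.37 and 2.77 CPM, a ratio of 5.20-fold (3.43 to 8.14) before and 1.86-fold (1.56 to 2.21) after depletion, with nearly all its UMIs in few cells. Its direction was not stable: the log2 ratio after depletion was -0.78 both with cells of at least 1000 genes and with no doublets removed, and with the gate on each cell it was -0.67 before and -1.02 after depletion. Bpifb1, which like Bpifa1 lies on chromosome 2, was at 0.437, 1.02, 0.343 and 0.217 CPM, from 14, 139, 12 and 29 UMIs. It was lower in the library labelled tamoxifen after depletion (0.212-fold, 0.137 to 0.318) and could not be told from level before it (0.786-fold, 0.332 to 1.83).

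UMIs of these genes lay to a large part in few cells, with the exception of Wfdc2. Wfdc2 had a UMI in 92.8%, 92.6%, 90.5% and 92.7% of epithelial-like cells after each cell was thinned to 2000 UMIs, and the 1% of cells with the most held 4.84% to 7.36% of its UMIs. Free RNA is the background for such shares: thinned endothelial-like cells, which should lack Wfdc2, had it in 2.61%, 9.82%, 3.33% and 10.7%, with median depths of 13839, 8373, 10111 and 7296 UMIs before thinning. The other 9 members each had at least 25% of their UMIs in the top 1% of cells in every library. For the scarce members low counts fix this. In the vehicle library before depletion the top 1% were 11 cells, which held 100% of the 9 Dcpp3, 14 Bpifb1 and 27 Scgb3a1 UMIs. How many of all genes reach 25% is not given here. For Dcpp1 the share of the top 1% was 56.7%, 43.2%, 33.8% and 47.1%, for Bpifa1 56.5%, 53.2%, 47.1% and 41.1%, and for Scgb3a2 50%, 53.5%, 62.9% and 70.5%. The bar plot of these shares shows Wfdc2 apart from the other genes in all 4 libraries. In the vehicle library before depletion, 1 cell held 3154 of 18119 Dcpp1 UMIs. In the library labelled tamoxifen after depletion, 1 cell held 1004 of 5766 Scgb1a1 UMIs. Most members' sums therefore rest to a large part on few cells.

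**Figure D2:**
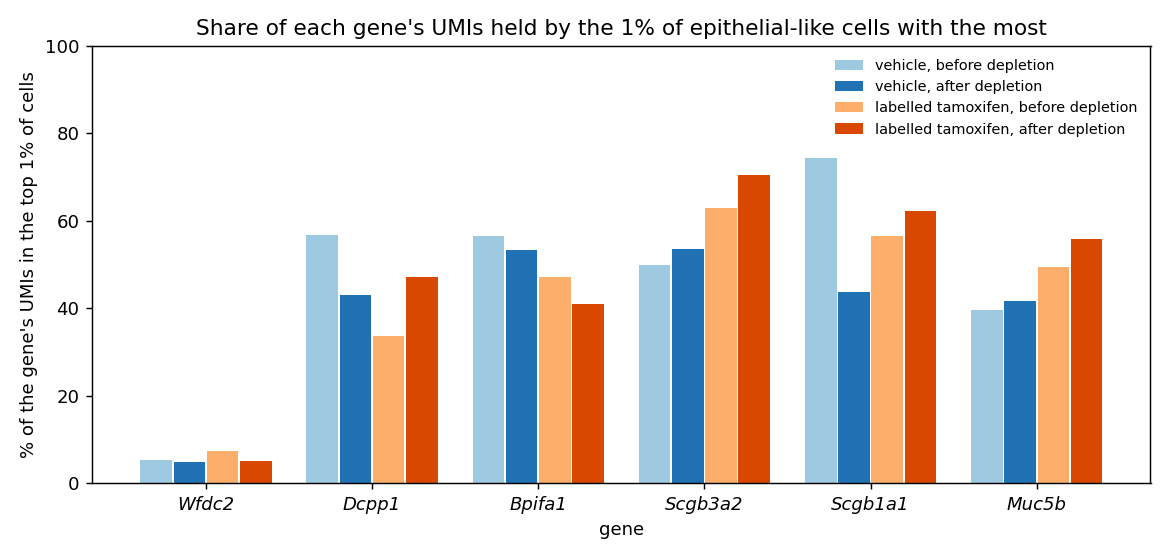
Percent of each gene's epithelial-like UMIs held by the 1% of cells with the most UMIs of that gene, for the 6 genes at 10 CPM or more, with 1 bar per library. Wfdc2 is under 8% in every library and Dcpp1 lies between 33.8% and 56.7%.

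Thinned shares of cells showed which genes stood above free RNA. Bpifa1 was seen in 5.22%, 5.97%, 11.8% and 14.4% of epithelial-like cells and in 1.31%, 1.23%, 0% (0 of 150 cells, with the floor of 3 counts at 2%) and 1.64% of endothelial-like cells. Dcpp1 was seen in 8.37%, 10.7%, 12.5% and 14.0% against 0% (0 of 153 cells, with the floor at 1.96%), 3.07%, 2% and 1.64%. Scgb3a2 was seen in 5.22%, 7.21%, 4.26% and 4.90% against 0%, 1.84%, 0% and 1.64%. Scgb1a1 differed from this: after depletion it was seen in 4.17% and 4.52% of epithelial-like and in 3.68% and 4.10% of endothelial-like cells, so its share over all epithelial-like cells was close to that background. The intervals of the epithelial-like and endothelial-like shares were apart, with the epithelial-like share higher, in all 4 libraries for Dcpp1 and Wfdc2. For Bpifa1 they met in the vehicle library before depletion, and for Scgb3a2 in the library labelled tamoxifen after it. Muc5b was in 1.97%, 1.92%, 1.57% and 1.22% of thinned epithelial-like cells, which did not clear the endothelial-like limit in any library.

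Epithelial-like cells fell into 15 states when clustered without the 10 members and without a list of 60 other airway genes. States are called here by their 2 leading genes outside the members and that list, and "like" names rest on marker lists. Members themselves were among the 10 leading genes of some states: Bpifa1 and Dcpp1 led the Pf4 Dlk1 state, and Dcpp1, Scgb3a2, Muc5b and Scgb1a1 were among those of the Stra8 Magi2, Rtkn2 Cym, Mcpt2 Tpsab1 and Lgals1 Sprr1a states. Levels by state are therefore descriptions of clusters of the same cells. After depletion 14 states held at least 50 cells in a library, 12 of them in both. Of the 6 members considered, 5 had a highest state at least 4-fold above the median state in each library after depletion (7.28% of 9156 genes did), Wfdc2 being the exception. In Muc5b alone of these 5 the same state was highest in both libraries (5.62% of genes met this and the 4-fold rule). The other 4 changed their leading state between libraries, and Wfdc2 kept its own, as the heat map of levels by state shows. Which member met both conditions depended on the clustering: at Leiden resolution 0.3 it was Bpifa1, at 611 and 944 CPM, and not Muc5b.

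**Figure D3:**
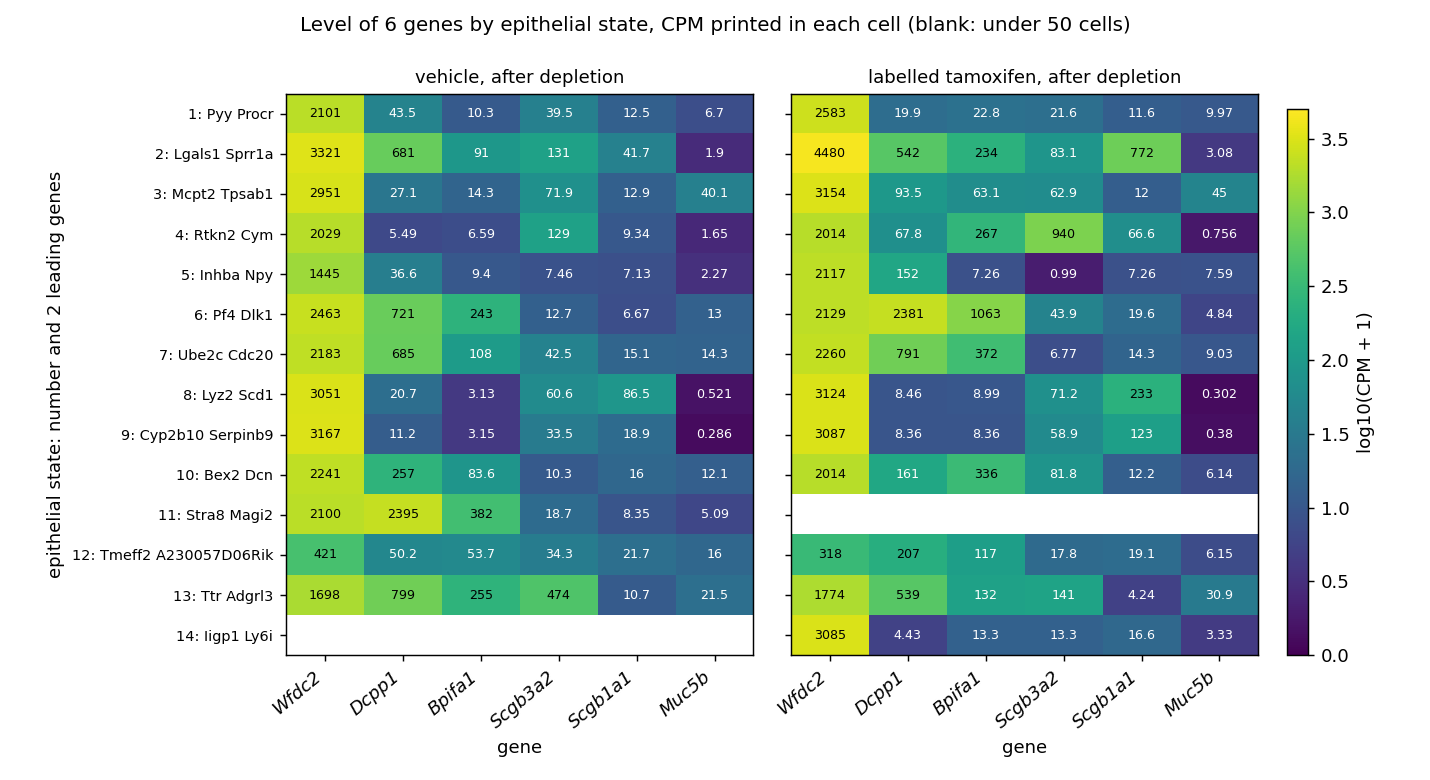
CPM of 6 genes in each epithelial state (rows, by state number and 2 leading genes) in the 2 libraries after depletion, with colour as log10(CPM + 1) and the CPM printed. Dcpp1 and Bpifa1 are highest in state 11 of the vehicle library (2395 and 382 CPM) and in state 6 of the library labelled tamoxifen (2381 and 1063 CPM).

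Dcpp1 and Bpifa1 were highest in the same states. In the vehicle library after depletion, the Stra8 Magi2 state held 465 cells (7.13% of epithelial-like cells) with Dcpp1 at 2395 CPM and Bpifa1 at 382 CPM. In the library labelled tamoxifen this state had 11 cells (0.155%). There the Pf4 Dlk1 state held 1543 cells (21.8%) with Dcpp1 at 2381 CPM and Bpifa1 at 1063 CPM, and the vehicle library had 122 cells of it (1.87%), at 721 and 243 CPM. The Pf4 Dlk1 state thus supplied 85.6% of Dcpp1 and 74.6% of Bpifa1 UMIs in the library labelled tamoxifen, against 3.17% and 4.40% in vehicle. In vehicle, the Stra8 Magi2 state supplied 42.0% of Dcpp1 and 27.6% of Bpifa1 UMIs, and the gastrointestinal-like Ttr Adgrl3 state 41.8% and 54.9%. A UMI of Dcpp1 was in 44.6% of thinned cells of the Stra8 Magi2 state (vehicle) and in 44.8% of the Pf4 Dlk1 state (labelled tamoxifen), and a UMI of Bpifa1 in 23.3% and 37.9%. Before depletion the Stra8 Magi2 state of vehicle was again highest, with 1908 CPM of Dcpp1 and 517 CPM of Bpifa1 in 60 cells. In the library labelled tamoxifen before depletion the Pf4 Dlk1 state was highest for Dcpp1, at 2053 CPM in 199 cells, but not for Bpifa1: it had 860 CPM there, against 926 CPM in the 78 cells of a state led by the immune genes Ccl6 and Chil3. That order turned on 1 cell with 1647 of the 2978 Bpifa1 UMIs of the Ccl6 Chil3 state: without the highest cell of each, this state had 427 CPM and the Pf4 Dlk1 state 771 CPM. The Ccl6 Chil3 state, at 200 CPM of Bpifa1 in 61 cells of vehicle, was nearly absent after depletion.

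The states that carried Dcpp1 differed in the Cre transcript. The Stra8 Magi2 state held 0 Cre UMIs among 2765723 before depletion (which allows up to 1.33 CPM) and 2 among 11974224 after it (0.167 CPM, interval 0.020 to 0.603). Over all epithelial-like cells Cre was at 2.59 and 3.21 CPM in vehicle. The Pf4 Dlk1 state had 4.67 CPM in vehicle and 3.92 CPM in the library labelled tamoxifen after depletion, and the Ttr Adgrl3 state had 4.12 CPM in vehicle and 0.848 CPM in the library labelled tamoxifen. The low-depth Lgals1 Sprr1a state had no Cre UMI in any library where it held at least 50 cells, at totals of 285436 to 527225 UMIs. Whether Cre bears on the members' levels was not tested.

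Within states Bpifa1 was higher in the library labelled tamoxifen in 10 of the 12 states compared after depletion, each time by at least 2-fold. Of 9042 genes, 3 (0.0332%), Bpifa1 among them, were at least 2-fold higher in 10 or more of these states. In the alveolar type 1-like Rtkn2 Cym state Bpifa1 had 6.59 CPM in vehicle (12 UMIs) and 267 CPM in the library labelled tamoxifen (2121 UMIs), in the Mcpt2 Tpsab1 state 14.3 and 63.1 CPM, and in the Bex2 Dcn state 83.6 and 336 CPM. The cycling-like Ube2c Cdc20 state had 108 and 372 CPM. Levels were low in the alveolar type 2-like Lyz2 Scd1 state, at 3.13 and 8.99 CPM. They were also low in the Cyp2b10 Serpinb9 state, at 3.15 and 8.36 CPM (11 and 22 UMIs). The part of free RNA in such low levels was not tested. Before depletion Bpifa1 was higher in 3 of the 4 states compared and lower in the Lyz2 Scd1 state, at 6.15 CPM in vehicle and 1.69 CPM in the library labelled tamoxifen. There 1 vehicle cell held 32 of 37 UMIs, and without the highest cells the values were 0.834 and 1.14 CPM. After depletion, the 2 states that went the other way were the Ttr Adgrl3 state, at 255 and 132 CPM, and the transitional-like Inhba Npy state, at 9.40 and 7.26 CPM. Single cells set the direction in 2 of the 12 states. In the Lgals1 Sprr1a state 1 cell held 74 of the 76 UMIs of the library labelled tamoxifen, and without the highest cells vehicle had 72.2 CPM and that library 6.68 CPM. In the Inhba Npy state 1 cell held 26 of the 29 UMIs of vehicle, and without the highest cells the values were 0.982 and 6.45 CPM. With the highest cell left out of every state and library, an alternative added after seeing the data, Bpifa1 was again at least 2-fold higher in 10 of 12 states, the Ttr Adgrl3 and Lgals1 Sprr1a states being lower (3 of 9042 genes, 0.0332%, reached as many). The Ttr Adgrl3 state carried most Bpifa1 of the vehicle library after depletion. The Pf4 Dlk1 state held 2.21% of the epithelial-like UMIs of that library and 28.4% of those of the library labelled tamoxifen. A ratio with state shares fixed at those of vehicle was 0.41 on the log2 scale after depletion, where the ratio over all cells was 1.72. Before depletion, where 4 states with 53.4% of vehicle UMIs could be compared, the same ratio was 2.10 beside 1.70. These 4 included the Ccl6 Chil3 state, at 926 CPM in the library labelled tamoxifen. There 1 cell, kept in the ratio, held 1647 of the 2978 Bpifa1 UMIs. Under fixed vehicle shares no member was 2-fold apart in both pairs (0.16% of 8772 genes were higher and 0.319% lower). With the shares of the library labelled tamoxifen, Bpifa1 was past the rule, at 2.14 and 1.99, the first over the same 4 states and with that cell. The Stra8 Magi2 state, which had too few cells in 1 library, is in none of these ratios.

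Dcpp1 had no common direction. It was higher in 6 and lower in 6 of the 12 states after depletion, from 8.46 CPM against 20.7 CPM in vehicle in the alveolar type 2-like Lyz2 Scd1 state to 67.8 against 5.49 CPM in the Rtkn2 Cym state. The low value rested on 1 vehicle cell with 232 of 398 UMIs, and without the highest cells the Lyz2 Scd1 state had 8.31 against 8.66 CPM. In the Inhba Npy state 1 cell held 446 of the 460 UMIs of the library labelled tamoxifen, and without the highest cells it had 4.71 against 5.57 CPM. Left out in every state, the highest cells made the tally 5 higher and 7 lower. In the Pf4 Dlk1 state it had 2381 against 721 CPM, and in the Bex2 Dcn state 161 against 257 CPM. With state shares fixed at vehicle its log2 ratio was -0.32 before and -0.17 after depletion, where the ratios over all cells were 0.41 and 0.65. With the shares of the library labelled tamoxifen it was -0.38 and 1.28, so the direction after depletion turned with the shares held. The panels of ratios by state show Bpifa1 to the right of 0 in most states and Dcpp1 on both sides.

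**Figure D4:**
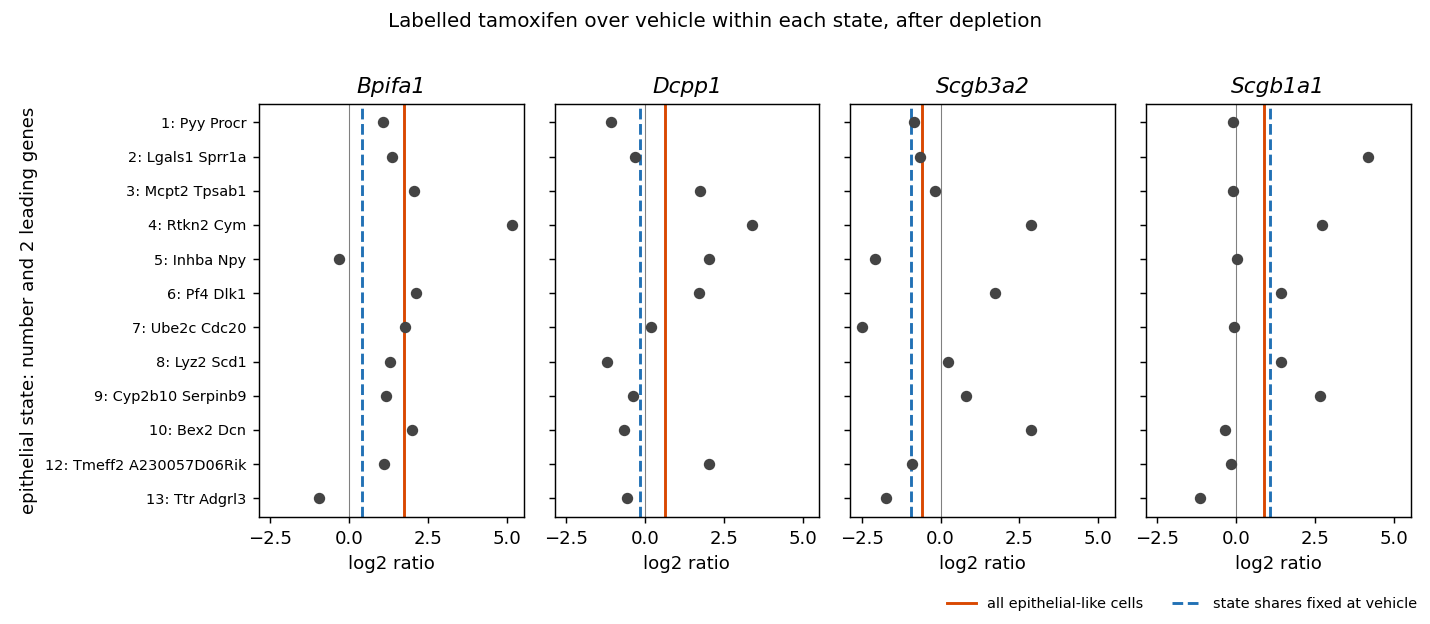
Log2 ratio (1 CPM added) of labelled tamoxifen over vehicle after depletion, for 4 genes (panels) within each of 12 states (points). Solid lines give the ratio over all epithelial-like cells (Bpifa1 1.72, Dcpp1 0.65, Scgb3a2 -0.58, Scgb1a1 0.89) and dashed lines the ratio with state shares fixed at vehicle (0.41, -0.17, -0.94 and 1.07).

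Scgb3a2 was found in different states in the libraries after depletion. In vehicle the gastrointestinal-like Ttr Adgrl3 state had 474 CPM and 80.0% of all Scgb3a2 UMIs, in 590 of its 1099 cells. In the library labelled tamoxifen that state had 121 cells, 141 CPM and 4.79% of the UMIs. There the alveolar type 1-like Rtkn2 Cym state was highest with 940 CPM and 53.7% of the UMIs, in 225 of its 604 cells, and the highest cell held 6.94% of them. This place depended on the clustering. At Leiden resolution 1 for the states, an unnamed state led by Spink5 and Aox3 was highest in that library, at 1110 CPM. It was apart from the alveolar type 1-like states, and its best marker list was that of club cells. After depletion it held 14 cells of vehicle and 351 of the library labelled tamoxifen. Which cells it shared with the Rtkn2 Cym state is not given here. In vehicle the Rtkn2 Cym state had 126 cells at 129 CPM, of which 1 cell held 60.7%, and 51.2 CPM remained without it. After thinning, Scgb3a2 was in 24.3% of Rtkn2 Cym cells of the library labelled tamoxifen (interval 20.9% to 28%) and in 7.2% of those of vehicle (3.35% to 13.2%). Before depletion the order was the same: 457 CPM in the Ttr Adgrl3 state of vehicle and 538 CPM in the Rtkn2 Cym state of the library labelled tamoxifen, where that state had 97 cells. The Bex2 Dcn state also differed, with 10.3 CPM in vehicle and 81.8 CPM in the library labelled tamoxifen after depletion, and 10.6 and 235 CPM before it. Scgb3a2 was higher under that label in 5 of 12 states and lower in 7. With state shares fixed at vehicle its log2 ratio was -0.94 after depletion, and with those of the library labelled tamoxifen it was 0.95. Before depletion these were -0.14 and 0.60, so its direction too turned with the shares held.

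Among states of more than 100 cells after depletion, Scgb1a1 was highest in an alveolar type 2-like one. The Lyz2 Scd1 state had 86.5 CPM in vehicle and 233 CPM in the library labelled tamoxifen after depletion, and 94.3 and 67.2 CPM before it. It supplied 53.5% and 53.4% of epithelial-like Scgb1a1 UMIs after depletion. A UMI was in 8.71% and 10.4% of its thinned cells, above the endothelial-like 3.68% and 4.10%. The value of the library labelled tamoxifen rested in part on 1 cell with 1004 UMIs, without which the state had 157 CPM, and vehicle had 76.4 CPM without its highest cell. The low-depth Lgals1 Sprr1a state reached 772 CPM in that library, but 1 cell held 241 of its 251 UMIs. In the Cyp2b10 Serpinb9 state, 1 cell held 83.1% and 21.1 CPM of 123 CPM remained without it. Scgb1a1 had a UMI in 426 of 1558 and 337 of 1096 Lyz2 Scd1 cells, and 10 or more in 20 and 32 of them.

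Muc5b was highest in the Mcpt2 Tpsab1 state in both libraries after depletion, at 40.1 CPM in vehicle and 45.0 CPM in the library labelled tamoxifen. This state stayed unnamed because another cell class led it by the marker lists. Its first 2 leading genes were the mast cell protease genes Mcpt2 and Tpsab1. In the library labelled tamoxifen before depletion it had 71.9 CPM in 95 cells. It was followed by the Ttr Adgrl3 state at 21.5 and 30.9 CPM. In the Pf4 Dlk1 state Muc5b had 13.0 and 4.84 CPM, opposite to Bpifa1 and Dcpp1. Under 1 CPM was counted in the alveolar type 2-like Lyz2 Scd1 and the alveolar type 1-like Cyp2b10 Serpinb9 states of both libraries (0.521 and 0.302, 0.286 and 0.380 CPM). The club cell gene Cyp2f2 was among the 10 leading genes of the Mcpt2 Tpsab1 state, as was Muc5b itself.

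Wfdc2 was even across states. After depletion it lay between 1445 CPM in the Inhba Npy state and 3321 CPM in the Lgals1 Sprr1a state of vehicle, and between 1774 and 4480 CPM in the library labelled tamoxifen, apart from the low-depth Tmeff2 state at 421 and 318 CPM. Its ratios within the 12 states lay between -0.40 and 0.55 on the log2 scale. It was the only member considered whose highest state was under 4-fold above the median state.

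Bpifa1 and Dcpp1 were seen in the same cells more often than their shares alone would give. After thinning both had a UMI in 35, 216, 70 and 460 cells, where the product of the shares gives 4.43, 41.0, 15.9 and 141, a ratio of 7.89, 5.27, 4.41 and 3.25. States in which both were high account for part of such an excess by construction. Scgb1a1 with Bpifa1 had 7 cells after depletion in vehicle where 15.9 would follow from the shares, and 34 in the library labelled tamoxifen where 45.7 would follow. Dcpp1 with Dcpp2 exceeded the product 6.0 to 12 times, and reads shared between these copies were not told apart. At least 3 members were seen in 4.43%, 5.24%, 7.22% and 8.09% of thinned epithelial-like cells.

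Across 41 combinations of a state and a library with at least 50 cells, the genes most like each member in log2(CPM + 1) were sought among 9018 genes. Combinations of 1 library share its depth and free RNA, and libraries of a treatment share a suspension, so these Pearson r are descriptions. Bpifa1 was most like Cyp2c40 (r = 0.85), Dcpp1 (0.85) and Moxd1 (0.84), and Dcpp1 most like Vcan (0.86), Bpifa1 (0.85) and Cdca7 (0.84). Among members Dcpp1 and Dcpp2 had r = 0.91 and Bpifa1 and Dcpp2 0.84. Muc5b was most like Tshz2 (0.82), Pcsk6 (0.79) and Gpc6 (0.78). Wfdc2 was most like Cd63 (0.94), Bsg (0.92) and Atp5d (0.92). Scgb3a2 had no gene above 0.63 (Fcgrt, then Spink5 at 0.62 and Fmo2 at 0.59), and Scgb1a1 none above 0.65 (Nol3, then AY036118 at 0.59 and Cyb5a at 0.58).

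Outside the epithelium, Scgb3a1 was far higher in endothelial-like cells than in epithelial-like cells. Endothelial-like cells had 129, 358, 366 and 387 CPM of it in the library order given, where epithelial-like cells had at most 4.37 CPM. It was seen in 13.1%, 19.6%, 23.3% and 23.0% of thinned endothelial-like cells and in 0% (0 of 1016 cells, which allows up to 0.295%), 0.063%, 0.185% and 0.213% of epithelial-like cells. Fibroblast-like cells had 1.42, 0.375, 2.34 and 0.780 CPM. Low Scgb3a1 counts in epithelial-like cells were therefore far below those of another class of the same suspension, and the part of free endothelial RNA in them was not tested.

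A cluster of 38 ciliated airway-like cells, with 0, 15, 6 and 17 cells in the library order given, held the highest secretoglobin levels. Its leading genes included Scgb1a1 and Scgb3a1 beside the cilia genes Ccdc153 and Cfap299, so it may hold other airway cells too. Scgb1a1 was at 143171, 7055 and 212361 CPM in its 3 libraries, Scgb3a1 at 4935, 0 and 1565 CPM and Scgb3a2 at 3301, 0 and 1870 CPM. Muc5b was at 383, 8.16 and 141 CPM and Wfdc2 at 7042, 4241 and 5024 CPM, while Dcpp1 was at 3.86, 0 and 141 CPM and Bpifa1 at 3.86, 0 and 971 CPM, the last from 1 cell with 261 UMIs. The epithelial-like class, which excludes these cells, held ciliated airway markers (5 genes) at 7.49 to 9.21 CPM in sum, with Ccdc153 at 0 in both libraries before depletion. Its club markers (6 genes, members left out) summed to 62.5 to 68.6 CPM with Gabrp at 0 in 1 library, its goblet markers (6 genes) to 72.4 to 93.5 CPM and its basal markers (4 genes) to 5.38 to 12.1 CPM with Ngfr at 0 in both libraries before depletion. The part of such cells in the members' sums was not tested beyond leaving out cells with UMIs of at least 2 ciliated markers, which left the log2 ratios of Bpifa1 at 1.54 and 1.71.

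**Figure D5:**
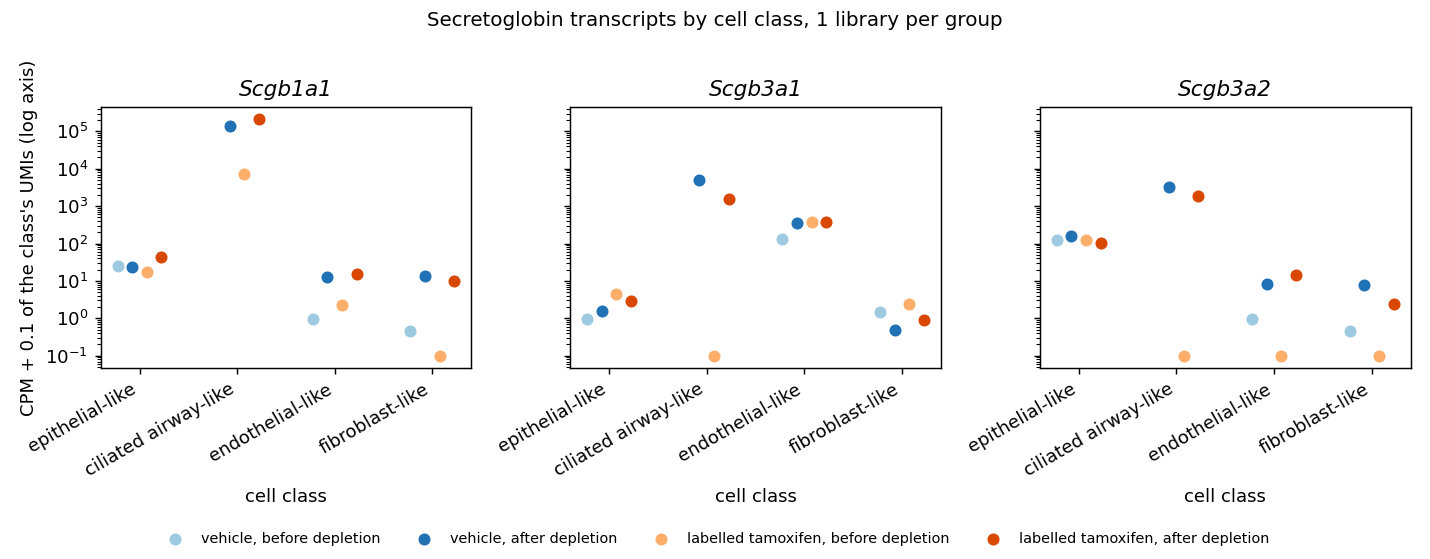
CPM (0.1 added, so a count of 0 is drawn at 0.1) of 3 secretoglobin genes in 4 cell classes on a log axis, with 1 point per library. The ciliated airway-like cluster has no cells in the vehicle library before depletion. Scgb1a1 is at 143171 and 212361 CPM in that cluster after depletion, and Scgb3a1 at 129 to 387 CPM in endothelial-like cells.

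Before depletion plasma cell-like cells of vehicle had 73 Bpifa1 UMIs, all in 1 of 50 cells (45.4 CPM), while those of the library labelled tamoxifen had 3 UMIs in 3 of 47 cells. Other immune classes of at least 50 cells had 0 to 23.5 CPM of Bpifa1 and 0 to 23.5 CPM of Dcpp1. The highest of both were in B cell-like cells of the library labelled tamoxifen before depletion.

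No gene of a longer airway list was past the rule in the direction of Bpifa1. Of 60 genes of club, goblet and gland cells, 26 reached 10 CPM, none was at least 2-fold higher in both pairs and 1 was lower, beside 0.376% and 0.929% of all genes. The lower gene was Agr2, a disulfide isomerase of mucus-secreting cells, at 80.2, 117, 18.7 and 40.1 CPM. The median log2 ratio of the list was -0.07 before and -0.16 after depletion. Its most abundant genes were Lcn2 (1117, 1072, 958 and 974 CPM), an iron-siderophore binding protein, and Slc12a2 (504, 413, 553 and 544 CPM), an ion cotransporter. Selenbp1 had 370, 471, 274 and 325 CPM, and Lyz1, the lysozyme gene of this list, 355, 326, 236 and 207 CPM, so both were lower under the tamoxifen label without reaching 2-fold. Muc1, a membrane mucin, had 283, 235, 239 and 249 CPM.

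Depletion left the members' levels in epithelial-like cells close to those before it in most cases. After over before depletion, the log2 ratio lay between -0.23 and 0.49 for the 10 members in vehicle and between -0.51 and 1.27 in the library labelled tamoxifen. The 1.27 belonged to Scgb1a1, for which a few cells weigh heavily, as given above.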

How the data were processed

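Single-cell 3′ libraries (10x, version 3) were made from portions of lung tumour cell suspensions, 1 library per group. Part of the genotype, shared by all groups, is not reported here. The authors deposited UMI counts per gene and cell, made with Cell Ranger 7.0.1 per the file headers and 7.2.0 on mm10 per the submitters' processing notes. Which annotation was used, and whether intronic or antisense reads were counted, is not given in the sources used here. The 10 members and all lists were chosen with earlier results of these data known.

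From these counts, cells under 200 genes or above 20% mitochondrial UMIs were left out, and cells with a Scrublet score above 0.25 were removed, since its automatic calls failed in the libraries after depletion (3 and 0 calls). This left 7080, 6923, 6111 and 7358 of 7658, 7284, 6558 and 7867 barcodes. Cells were clustered (scanpy 1.11.5, 2000 variable genes, 40 components, Leiden at resolution 0.5 for classes, chosen after seeing the data, and 0.6 for states) and named from marker lists. UMIs were summed per class or state and library and given as CPM, with exact Poisson (CPM), Clopper-Pearson (shares) and conditional binomial (ratios) 95% intervals, which cover counting error only. Log2 ratios have 1 CPM added and folds have none. With 1 library per group no test was possible. Genes were called at 10 CPM or more and 2-fold in both pairs, a rule tested on simulated data. Shares of cells were taken after thinning to 2000 UMIs, and floors are 3 counts. The genes named are the members, the 3 genes most like each, those of the airway list past the rule and its 5 most abundant, and Hnf4a and Nkx2-1. Cre was added after its values were seen. Gene positions are from GENCODE M21, which held 32158 of 32289 feature IDs, and sequences from RefSeq (GRCm38.p6). Alternatives were other cell filters, scalings, pseudocounts, thresholds, cell gates and clusterings, with TMM factors from edgeR 4.0.16.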

Additional observations from a re-analysis of the deposited data

Results flagged for a closer look

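The log2 ratio of labelled tamoxifen over vehicle for Scgb1a1 was -0.52 before and 0.89 after depletion, opposite in direction between the pairs. In 4 of 11 alternatives both were positive: 0.35 and 0.65 with cells of at least 1000 genes, 0.37 and 0.54 with no doublets removed, 0.99 and 0.36 with a gate on each cell, and 0.19 and 0.31 without the 1% of cells with the most UMIs. Muc5b was opposite the other way, at 0.32 before and -0.30 after, but with Leiden resolution 1 for the classes it was at -0.34 and -1.0. With 1 library per group the differences between the pairs were not tested.

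The ciliated airway-like cluster, which no comparison of treatments used, held Scgb1a1 at 143171 CPM in the vehicle library and 212361 CPM in the library labelled tamoxifen after depletion, and Scgb3a1 at 4935 and 1565 CPM. These are far above the limits that a count of 0 allows there. Scgb1a1 had a UMI in 14 of 15 and 14 of 17 cells, and Scgb3a1 in 3 and 2 of them.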

How the results depend on the processing

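Bpifa1 was higher in both pairs under all 11 alternatives, at log2 ratios of 1.41 to 1.97 before and 1.65 to 2.05 after depletion, and 0 members passed at 4-fold. Of 220 member ratios under alternatives, 78 were marked as moved, a mark set relative to the counting interval and given to some shifts smaller than its span. The other sign was seen in 18, spread over 7 of 20 ratios, and 3 were at 0. Scgb3a2 before depletion ranged from -0.45 to 0.53, Scgb1a1 before depletion from -0.70 to 0.99 and Scgb3a1 after depletion from -1.02 to 0.85. The cause was not tested. Genes higher in both pairs numbered 34, but 12 with 10 CPM added and 3 at 4-fold. Genes lower numbered 84, but 27 with 10 CPM added, 160 with no CPM minimum, 10 at 4-fold and 53 by the mean over cells. Members restricted to 1 state were 1, and 2 with members and airway list among the variable genes. Members past the rule at fixed state shares were 0, and 1 with the shares of the library labelled tamoxifen. Members above the endothelial-like share in all libraries were 2, and 5 without thinning. Airway list genes higher were 0, and 1 with no CPM minimum. No paired analysis was possible because each group has 1 library.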
